A study of Mus musculus with 18 samples.

Results

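The genes described here encode the machinery that copies DNA: the proteins that license and fire replication origins, the polymerases and their clamp, the enzymes that join the new strands, and those that supply deoxynucleotides. They were chosen as a list of 46 gene symbols by role, not by a measured value, although earlier results of these data were known. Every probe set annotated to one of them was followed. Of the 46 genes, 44 were measured by 78 of the 22626 probe sets (12393 genes in all), 24 of them by several probe sets and 20 by 1. *Gins2* and *Chaf1a* had no probe set of their own in the annotation used, and 1 further probe set that names *Tyms* together with a pseudogene was left out. Where several probe sets measured a gene, 1 represents it, and the others are described at the end.

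RNA was measured on 18 arrays of thymocytes of C57BL/6 mice without an introduced allele or treatment, sorted as lineage negative cells at 3 successive stages. Early thymic progenitors (ETP) were CD44+ CD25- c-Kit+, DN2 cells CD44+ CD25+, and DN3 cells CD44- CD25+. The 3 adult groups came from female mice of 4 to 6 weeks, and the 3 fetal groups from thymi labelled E14.5, for which the study's text gives a day later and the labels give no sex. Each group had 3 arrays, with RNA from 80000 cells per sample and the RNA of several independent sorts pooled for each array, so that each array averages over animals. The labels call the arrays of a group biological replicates and the study's methods call them technical ones, and the p-values measure only the spread between these arrays.

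Before a cell can copy its genome, the origin recognition complex (Orc proteins), Cdc6 and Cdt1 load the ring-shaped Mcm2-7 helicase onto DNA in G1 phase, and geminin (*Gmnn*) keeps this from recurring in the same cycle. Cyclin E with its kinase partner, and Cdc7 with Dbf4, then switch the helicase on together with Cdc45, the GINS complex and Mcm10. Primase and the polymerases alpha, delta and epsilon copy the strands, held on DNA by the sliding clamp PCNA, which the Rfc complex loads, while Rpa coats single strands. Many of these genes are transcribed at the entry into S phase under the control of E2F factors, which are held in check by the pocket proteins of the retinoblastoma family. Early thymocytes also divide on the way from ETP to DN3. The share of cycling cells is not measured by the arrays, and RNA of these genes is not a measure of it. The study measured DNA content in sorted cells of the same stages. At both ages it found the largest share of cells in S phase or later in DN2 and the smallest in DN3. The share was lower in adult than in fetal ETP, and DN2 and DN3 were nearly alike between the ages. How these shares relate to the values of the arrays was not tested. In RNA from whole populations, fewer cycling cells and less RNA per cycling cell cannot be told apart.

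To show what the members share in sequence, E2F words were searched in the RefSeq promoter windows of assembly GRCm38.p6, which run from 250 bases before to 50 bases after an annotated start. The words were TTCCCGC and TTCGCGC as well as TTGCCGC and TTGGCGC, on either strand, which can overlap one another. At least 1 of them was found in 25 of the 44 windows held for 37 measured members (56.8%), against 9.57% of all 32851 windows. Member windows also had more G and C (median 61.3%, against 52.7% over all windows), and the part of base composition in the difference in share was not tested. CCAAT, on either strand, was in 52.3% of member windows and 37.4% of all windows. TTTGAA, on either strand, was in 15.9% and 17.9%. The E2F words were in 61.1% of the windows of members that were regulated over the 6 groups, as defined below, and in 53.8% of the windows of the other members. For CCAAT these shares were 72.2% and 38.5%, and for TTTGAA 11.1% and 19.2%. No difference between these shares was tested. A match describes the letters and does not show that a factor binds there. The stretches below are from the promoters of regulated members with such a word before the start. Each is 100 bases long, is written 5′ to 3′ in the direction of the gene and has the E2F words in capitals.
*Orc1* (chr4:108579354-108579453, + strand): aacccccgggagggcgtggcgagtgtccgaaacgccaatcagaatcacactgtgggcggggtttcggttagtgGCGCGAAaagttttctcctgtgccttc
*Rpa2* (chr4:132768260-132768359, + strand): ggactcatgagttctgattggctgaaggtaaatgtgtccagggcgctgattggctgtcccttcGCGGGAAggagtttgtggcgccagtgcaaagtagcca
*Mcm7* (chr5:138171996-138172095, - strand): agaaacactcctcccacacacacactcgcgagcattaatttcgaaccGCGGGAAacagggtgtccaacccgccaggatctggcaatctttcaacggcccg
*Rrm1* (chr7:102441581-102441680, + strand): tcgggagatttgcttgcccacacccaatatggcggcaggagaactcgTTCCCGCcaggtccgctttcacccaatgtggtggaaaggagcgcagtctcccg
*Mcm5* (chr8:75109306-75109405, + strand): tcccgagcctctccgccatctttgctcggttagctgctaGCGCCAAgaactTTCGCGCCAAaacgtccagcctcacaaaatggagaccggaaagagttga
*Prim1* (chr10:128015115-128015214, + strand): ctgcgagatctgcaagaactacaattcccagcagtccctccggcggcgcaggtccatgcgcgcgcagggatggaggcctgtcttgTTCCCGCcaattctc
*Rrm2* (chr12:24708004-24708103, + strand): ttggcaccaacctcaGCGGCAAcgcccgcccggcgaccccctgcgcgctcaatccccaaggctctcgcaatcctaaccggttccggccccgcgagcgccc

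The *Mcm5* stretch holds 3 words, of which the last 2 overlap in the run TTCGCGCCAA, and each of the others holds 1. Of the 16 regulated members with a window, 10 held an E2F word in it. None was found in the windows of *Ccne1*, *Tk1*, *Pcna*, *Cdc45*, *Orc6* and *Pold2*, which says only that these letters are not in those windows.

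Values are log2 intensities that were centred for each probe set on its median over the 18 arrays. They compare arrays and hold no level, so that 0 is the middle of the arrays and not absence, and genes cannot be ranked by abundance. Array medians over all probe sets lay between -0.089 and 0.05. Some arrays go against their labels or stand apart. *Xist*, which coats the inactive X chromosome, was at 1.59, -11.28 and -11.34 on arrays 1 to 3 of adult DN3. *Cd44*, which DN3 cells are sorted to lack, stood at -0.86 on adult DN3 array 3 against -7.97 and -7.84 on the other two. The embryonic globin gene *Hbb-y* or the erythroid gene *Alas2* was raised on all 6 fetal arrays numbered 2 or 3. Myeloid markers were highest in adult ETP, with a mean over the 12 genes of 3.09 to 4.30 on its arrays, against 1.83 to 2.06 in fetal ETP and 0.04 to 0.60 in adult DN2.

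Most DNA replication genes were low in adult ETP, and the array medians over these genes overlapped between the other 5 groups. The median over the 44 genes was -0.56, -0.79 and -0.63 on the adult ETP arrays and lay between -0.41 and 0.33 on the other 15, so that adult ETP did not overlap with any other group. Adult ETP had the lowest mean of the 6 groups for 34 of the 44 genes (77.3%, against 36.9% of all genes). For 11 genes (25%) each of the 3 adult ETP arrays was below all 15 others, against 3.7% of all genes. These were *Ccne1*, *Mcm5*, *Pcna*, *Pold2*, *Prim1*, *Rfc3*, *Rfc4*, *Rpa2*, *Rrm1*, *Rrm2* and *Tk1*. No member had all 3 adult ETP arrays above the other 15, as 3.53% of all genes had.

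**Figure D1:**
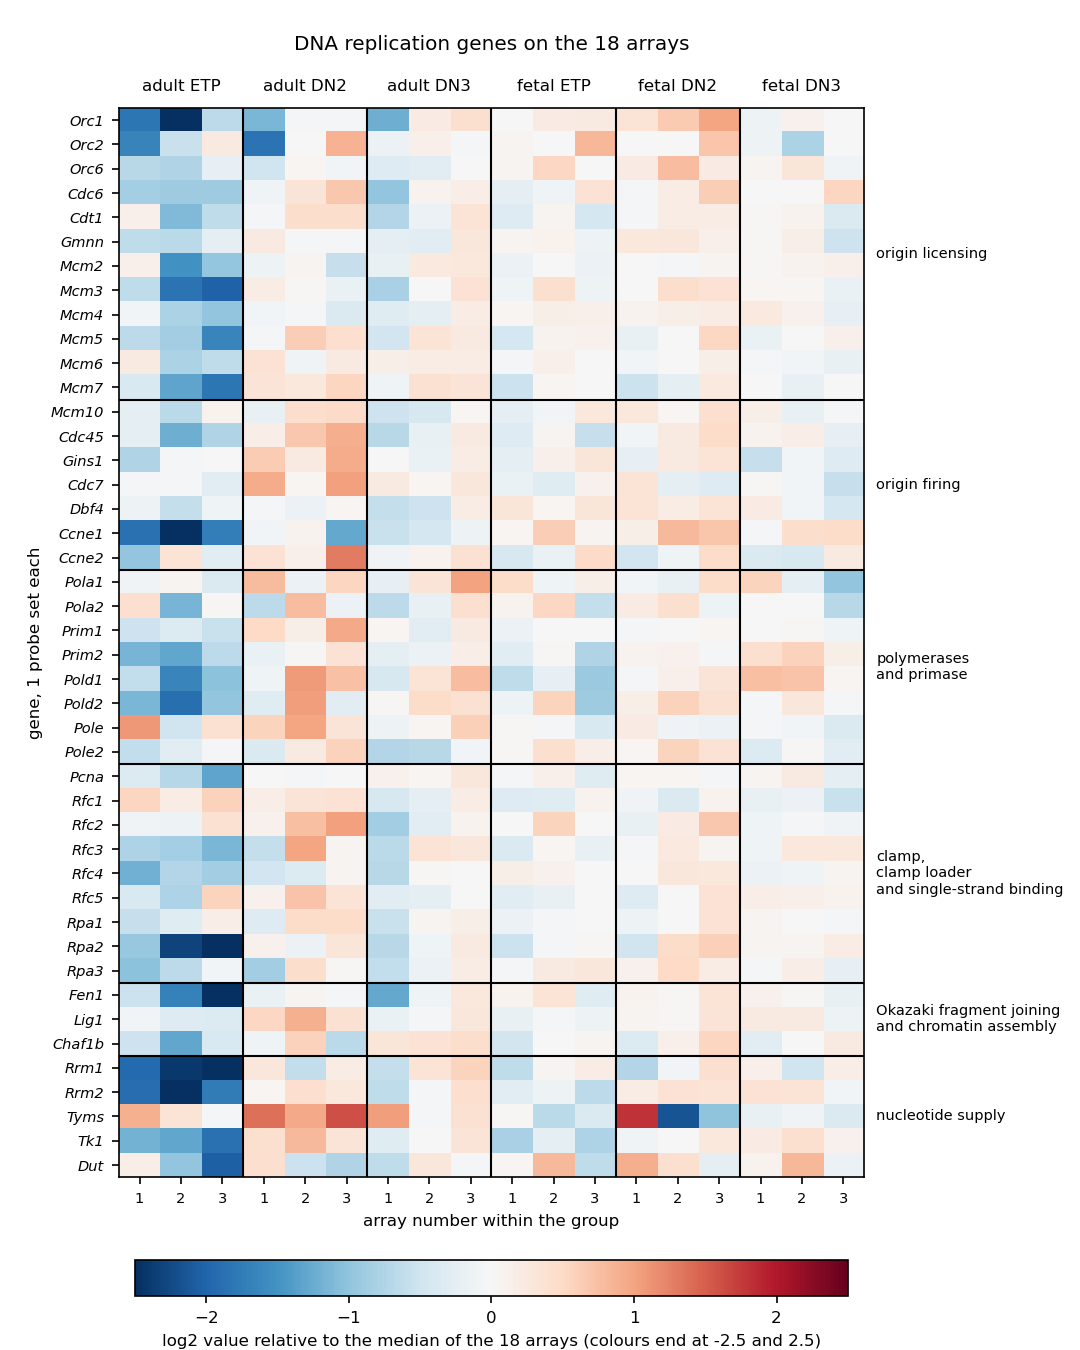
Heat map of the 44 DNA replication genes (rows, ordered by role) on the 18 arrays (columns, 3 per group), coloured by the log2 value relative to the median of the 18 arrays from -2.5 (blue) to 2.5 (red). The 3 adult ETP columns are mostly blue, whereas the other 15 are pale for most genes.

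Within each age the highest mean was most often in DN2, for 31 of the 44 genes in the adult (70.5%, against 46.1% of all genes) and likewise for 31 in the fetus (70.5%, against 15.7%). In the adult the lowest mean was in ETP for 38 genes (86.4%, against 42.4% of all genes) and in DN3 for 6. In the fetus it was in ETP for 20 (45.5%, against 19.7% of all genes) and in DN3 for 21 (47.7%, against 64.6%). The 6 group means of a member ranged over a median of 0.97 log2, and over 0.57 log2 when adult ETP was left out. A range cannot widen when a group is left out. Over all genes these ranges were 0.60 and 0.43.

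A gene is called below where limma's adjusted p (Benjamini and Hochberg, over all probe sets) was under 0.05 and the means differed at least 1.8-fold. Regulated means that limma's F test across all groups gave such a p and that the highest and lowest group means were this far apart. By this test 17 of the 44 members were regulated (19.7% of all genes were). They comprised 5 of 12 licensing genes, 2 of 7 firing genes, 4 of 8 polymerase and primase genes, 3 of 9 clamp, loader and Rpa genes, 3 of 5 nucleotide supply genes, and 0 of 3 genes for fragment joining and chromatin assembly, of which 2 had an unadjusted p under 0.05. The number fell to 7 without adult ETP array 2 and to 9 without adult ETP array 3. Here and below, members at an unadjusted p under 0.05 are counted without the share of all genes at that limit. That share was not computed, so these counts are no result about the members.

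Of the licensing genes, *Orc1*, the largest subunit of the origin recognition complex, had the widest range of means. It stood at -1.8, -3.10 and -0.65 in adult ETP, at -1.14, -0.04 and -0.04 in adult DN2, and at -1.23, 0.20 and 0.40 in adult DN3. The fetal arrays lay at -0.01, 0.21 and 0.23 in ETP, 0.35, 0.65 and 0.98 in DN2, and -0.13, 0.10 and 0.01 in DN3. All 9 fetal arrays were thus above the adult ETP arrays, but adult ETP overlapped with both other adult groups.

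*Mcm3*, a subunit of the Mcm2-7 helicase, stood at -0.64, -1.84 and -2.03 in adult ETP and at 0.18, 0.03 and -0.17 in adult DN2. The adult DN3 arrays were at -0.82, 0.01 and 0.36, and the fetal arrays between -0.17 and 0.43. Array 1 of adult ETP was the mildest of its group, and array 1 of adult DN3 lay below it. *Mcm5* and *Mcm7* of the same ring were regulated too, with adult ETP means of -1.05 ± 0.52 and -1.17 ± 0.72 (SD, n = 3), whereas *Mcm2*, *Mcm4* and *Mcm6* were not. *Orc6*, the smallest subunit of the origin complex, was regulated with an adult ETP mean of -0.55 ± 0.31 (SD, n = 3).

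Of the firing genes, *Ccne1*, which encodes cyclin E1, had the widest range of means of all members. It stood at -1.87, -3.05 and -1.73 in adult ETP, -0.07, 0.09 and -1.27 in adult DN2, and -0.56, -0.44 and -0.12 in adult DN3. The fetal arrays lay at 0.05, 0.62 and 0.06 in ETP, 0.15, 0.81 and 0.69 in DN2, and -0.05, 0.43 and 0.45 in DN3. Adult ETP was below every other array, and the fetal ETP arrays were above all adult arrays except DN2 array 2. *Ccne2*, which encodes cyclin E2, showed no such order: its adult ETP arrays stood at -0.99, 0.34 and -0.28 and its fetal ETP arrays at -0.40, -0.16 and 0.47.

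*Cdc45*, a component of the active helicase, stood at -0.24, -1.23 and -0.76 in adult ETP, 0.17, 0.68 and 0.90 in adult DN2, and -0.69, -0.18 and 0.22 in adult DN3. The fetal arrays lay at -0.33, 0.07 and -0.57 in ETP, -0.07, 0.22 and 0.46 in DN2, and 0.09, 0.16 and -0.20 in DN3. Here adult ETP was apart from adult DN2 and overlapped with fetal ETP and adult DN3. The other firing genes, *Mcm10*, *Gins1*, *Cdc7*, *Dbf4* and *Ccne2*, were not regulated.

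Among polymerases and primase, both regulated polymerase genes encode subunits of polymerase delta, which copies the lagging strand. *Pold2* stood at -1.14, -1.89 and -0.99 in adult ETP, -0.30, 1.04 and -0.26 in adult DN2, and 0.03, 0.45 and 0.39 in adult DN3. Its fetal arrays lay at -0.12, 0.55 and -0.89 in ETP, 0.14, 0.58 and 0.38 in DN2, and -0.03, 0.29 and -0.03 in DN3. *Pold1*, the catalytic subunit, stood at -0.61, -1.65 and -1.02 in adult ETP, -0.10, 1.06 and 0.74 in adult DN2, and -0.40, 0.34 and 0.78 in adult DN3. The fetal ETP arrays of *Pold1* were at -0.63, -0.21 and -0.92 and overlapped with adult ETP, while fetal DN2 (-0.05, 0.13 and 0.33) and DN3 (0.75, 0.71 and 0.05) were higher. Both primase subunits were regulated: the adult ETP means were -0.47 ± 0.11 for *Prim1* and -1.04 ± 0.34 for *Prim2* (SD, n = 3). *Pole*, the catalytic subunit of polymerase epsilon, was among the few members that were not low in adult ETP, with 1.09, -0.50 and 0.39 on its arrays.

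Of the clamp, the clamp loader and Rpa, *Rpa2*, the middle subunit of the single-strand binding protein, had the widest range of means. It stood at -0.94, -2.32 and -3.58 in adult ETP, 0.10, -0.15 and 0.30 in adult DN2, and -0.70, -0.11 and 0.22 in adult DN3. The fetal arrays lay at -0.54, -0.02 and 0.02 in ETP, -0.50, 0.45 and 0.59 in DN2, and 0.07, 0.06 and 0.19 in DN3. Adult ETP was below all other arrays, although its own arrays spanned more than 2 log2.

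*Rfc4*, a subunit of the clamp loader, was steadier, at -1.2, -0.73 and -0.87 in adult ETP, -0.47, -0.35 and 0.07 in adult DN2, and -0.70, 0.03 and 0.00 in adult DN3. Its fetal arrays lay at 0.14, 0.11 and 0.01 in ETP, 0.00, 0.28 and 0.26 in DN2, and -0.14, -0.10 and 0.06 in DN3. *Pcna*, the clamp itself, stood at -0.34, -0.72 and -1.31 in adult ETP and between -0.30 and 0.28 on all other arrays. The representative of *Rfc1*, the large subunit of the loader, went the other way, at 0.54, 0.18 and 0.57 in adult ETP and -0.33, -0.30 and 0.08 in fetal ETP. The other probe sets of *Rfc1* did not show this. Their means were -0.05 and -0.07 in adult ETP, and 0.07 for each in fetal ETP.

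Of the nucleotide supply genes, *Rrm1*, the large subunit of ribonucleotide reductase, stood at -1.95, -2.41 and -3.04 in adult ETP, 0.29, -0.62 and 0.19 in adult DN2, and -0.59, 0.34 and 0.56 in adult DN3. The fetal arrays lay at -0.64, 0.07 and 0.19 in ETP, -0.74, -0.07 and 0.41 in DN2, and 0.13, -0.50 and 0.17 in DN3. More than 1 log2 separated the highest adult ETP array from the lowest of all others.

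*Rrm2*, the small subunit of the same enzyme and its cell cycle regulated part, stood at -1.91, -2.51 and -1.74 in adult ETP, 0.04, 0.42 and 0.26 in adult DN2, and -0.63, -0.04 and 0.42 in adult DN3. The fetal arrays lay at -0.26, -0.13 and -0.66 in ETP, 0.18, 0.37 and 0.34 in DN2, and 0.37, 0.35 and -0.07 in DN3. *Tk1*, thymidine kinase, stood at -1.18, -1.30 and -1.87 in adult ETP, -0.81, -0.24 and -0.78 in fetal ETP, and between -0.31 and 0.81 on the other 12 arrays. For *Tk1* the fetal ETP mean lay between those of adult ETP and the later stages. *Tyms*, thymidylate synthase, was the least repeatable member, at 1.81, -2.16 and -1.0 on the fetal DN2 arrays.

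None of the genes for fragment joining and chromatin assembly was regulated. *Fen1*, the nuclease that trims Okazaki fragments, stood at -0.54, -1.69 and -2.75 in adult ETP, 0.08, 0.35 and -0.30 in fetal ETP, and -1.28, -0.11 and 0.27 in adult DN3. *Chaf1b*, a subunit of the chromatin assembly factor, stood at -0.52, -1.29 and -0.39 in adult ETP and 0.30, 0.36 and 0.43 in adult DN3.

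**Figure D2:**
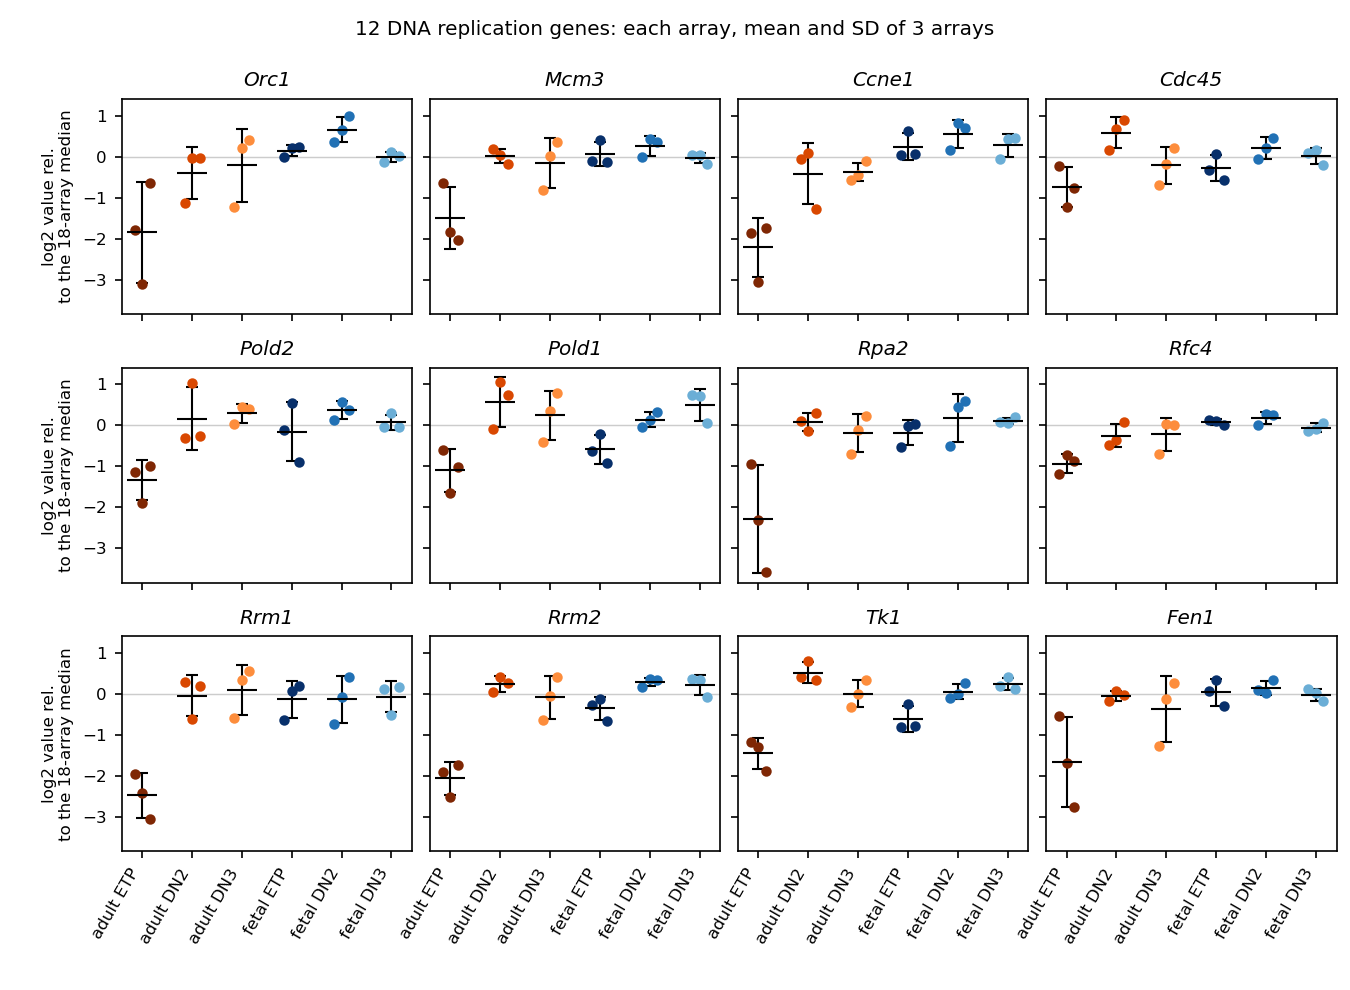
Log2 values relative to the median of the 18 arrays for 12 DNA replication genes in the 6 groups: points are arrays, the long bar is the mean and the error bar the SD of 3 arrays. The adult ETP points of *Ccne1*, *Rpa2*, *Rrm1*, *Rrm2* and *Tk1* lie below all points of the other groups, and those of *Rpa2* and *Fen1* are widely spread.

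Fetal and adult ETP were compared to ask whether progenitors that entered the thymus in fetal and in adult life differ at the same stage. Of the 44 members 9 were higher in fetal ETP and 0 lower, where 6.16% of all genes were called higher and 4.06% lower. The largest differences were those of *Ccne1* (2.46 ± 0.39 log2, SE, 5.50-fold, limma adjusted p = 0.00122), *Rrm1* (2.34 ± 0.41, 5.05-fold, adjusted p = 0.00239), *Rpa2* (2.10 ± 0.50, adjusted p = 0.0172) and *Orc1* (1.99 ± 0.54, adjusted p = 0.031). *Rrm2* was 1.71 ± 0.25 log2 higher and *Fen1* 1.70 ± 0.46, followed by *Mcm3* (1.56 ± 0.34), *Rfc4* (1.02 ± 0.19) and *Mcm7* (1.01 ± 0.30). For *Rrm1* and *Rpa2* the second probe set showed a smaller difference and was not called. Its means were -0.69 in adult and -0.03 in fetal ETP for *Rrm1*, and -0.58 and -0.09 for *Rpa2*. By role, 3 of 12 licensing, 1 of 7 firing, 2 of 9 clamp, loader and Rpa, 1 of 3 joining and assembly and 2 of 5 nucleotide supply genes were higher, and none of the 8 polymerase and primase genes, of which 3 had an unadjusted p under 0.05. The median difference over the members was 0.65 log2, against 0.072 log2 over all genes. Of the 4 members below 0, *Rfc1* was -0.61 ± 0.18 log2 on its representative probe set, with an adjusted p of 0.046, within the fold limit. *Tyms*, *Pole* and *Cdc7* stood at -0.74 ± 0.71, -0.45 ± 0.32 and -0.01 ± 0.25.

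All 3 fetal ETP arrays lay above all 3 adult ETP arrays for 21 members (47.7%), but so did 51% of all genes, so that this share is no result about the members. The count of 9 fell to 5 without fetal ETP array 2, to 2 (*Ccne1* and *Rrm2*) after quantile normalization, to 4 when only the 6 ETP arrays were fitted, and to 0 without the 6 fetal arrays numbered 2 or 3, where fetal ETP is a single array. *Rrm2* and *Ccne1* were called under 19 of 20 alternatives each and *Rfc4* under 18, whereas *Mcm7* was called under 5, *Orc1* and *Fen1* under 10 each and *Rpa2* under 12.

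The step from adult ETP to adult DN2 was compared to ask which genes change as progenitors begin to commit to the T lineage. Here 15 of the 44 members rose and 0 fell, where 3.86% of all genes were called higher and 3.61% lower. This comparison uses the same adult ETP arrays as that of fetal with adult ETP, so that their likeness is in part shared. The rise was 2.42 ± 0.41 log2 (SE) for *Rrm1*, 2.36 ± 0.50 for *Rpa2*, 2.29 ± 0.25 for *Rrm2*, 1.97 ± 0.22 for *Tk1* and 1.8 ± 0.39 for *Ccne1*. In the same order the fetal against adult ETP differences were 2.34, 2.10, 1.71, 0.84 and 2.46 log2, of which that of *Tk1* (adjusted p = 0.0264) was within the fold limit. *Rrm2* and *Tk1* had the smallest adjusted p of the members (8.06e-05 and 8.81e-05 by limma) and were called under all 21 alternatives. *Gins1* was called under 9 of the 21, *Cdc6* under 11, and *Mcm3* under 11 with 1 change of sign. The count of 15 fell to 3 after quantile normalization and to 2 when only the 6 arrays compared were fitted.

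Of the polymerase and primase genes 4 of 8 rose, *Pold1* by 1.67 ± 0.37, *Pold2* by 1.5 ± 0.39, *Prim2* by 1.11 ± 0.21 and *Prim1* by 1.0 ± 0.16 log2 (SE). The 4 licensing genes that rose were *Mcm7* (1.55 ± 0.30), *Mcm3* (1.52 ± 0.34), *Mcm5* (1.39 ± 0.29) and *Cdc6* (1.17 ± 0.30), the loader of the helicase. Besides *Ccne1* the firing genes *Cdc45* (1.33 ± 0.29) and *Gins1* (0.86 ± 0.24) rose, and so did 1 of 9 clamp, loader and Rpa genes and 3 of 5 nucleotide supply genes. None of the 3 joining and assembly genes was called, *Fen1* with 1.62 ± 0.46 log2 and an adjusted p of 0.0502 among them, and 2 of the 3 had an unadjusted p under 0.05. The median difference over the members was 0.79 log2, against 0.014 over all genes. All adult DN2 arrays were above all adult ETP arrays for 23 members (52.3%), against 8.32% of all genes.

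From adult ETP to adult DN3, 13 members were higher and 0 lower (6.8% and 6.09% of all genes were), with a median of 0.56 log2. All adult DN3 arrays were above all adult ETP arrays for 16 members (36.4%), against 13.6% of all genes. The called genes included *Rrm1* (2.57 ± 0.41 log2, SE), *Rpa2* (2.08 ± 0.50) and *Rrm2* (1.97 ± 0.25), and 2 genes not called at DN2, *Chaf1b* (1.10 ± 0.32) and *Pcna* (0.93 ± 0.19). Without the 2 adult DN3 arrays that were low in *Xist*, 2 genes were left, *Rrm2* and *Tk1*. The count was 7 without adult DN3 array 2, and 8 without adult DN3 array 3 or adult ETP array 2. By the study's measurement of DNA content, adult DN3 had a smaller share of cells in S phase or later than adult ETP. How this share relates to the values of these members was not tested.

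**Figure D3:**
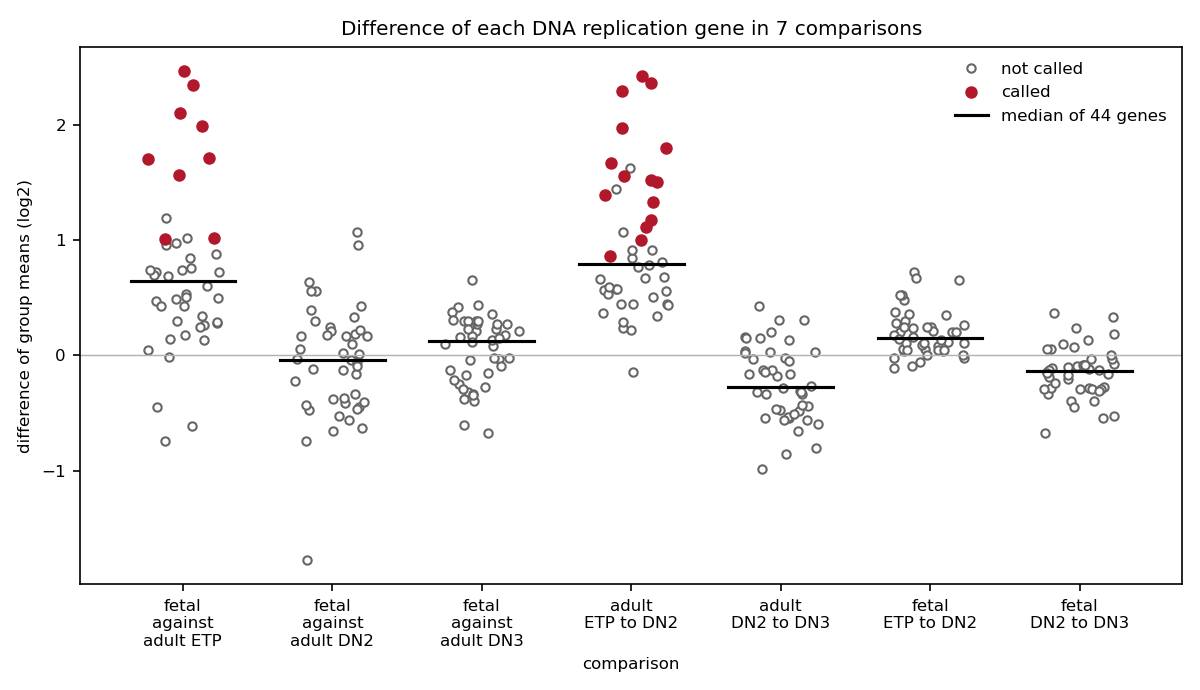
Difference of group means (log2) of each of the 44 DNA replication genes in 7 comparisons, the later stage minus the earlier or fetal minus adult; filled points were called, open ones were not, and the bar is the median. The 9 and 15 called genes all lie in the comparisons that contain adult ETP, where the medians are 0.65 and 0.79, whereas the other 5 medians lie between -0.27 and 0.15.

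Once adult ETP was left out, few differences passed the test. Between fetal and adult DN2 limma called 0 of 44 members (4.06% of all genes), with 3 higher and 5 lower at an unadjusted p under 0.05 and a median of -0.03 log2. The differences farthest from 0 among all members were those of *Tyms* at -1.77 ± 0.71 log2 (SE, adjusted p = 0.246), *Orc1* at 1.07 ± 0.54 (adjusted p = 0.418) and *Ccne1* at 0.96 ± 0.39 (adjusted p = 0.241). Fits that weighted each array called 5 members there, *Ccne1* and *Dut* higher and *Tyms*, *Ccne2* and *Cdc7* lower, although the estimate of the weights stopped before it converged. Between fetal and adult DN3, 0 members were called (3.28% of all genes), and 0 had an unadjusted p under 0.05. The differences of members lay between -0.67 and 0.65 log2 there with a median of 0.12, and every other fit made called 0 as well.

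From adult DN2 to adult DN3 limma called 0 members (1.09% of all genes), while 9 were lower and 0 higher at an unadjusted p under 0.05 and the median was -0.27 log2. *Rfc2*, a subunit of the clamp loader, had the largest fall, with a difference of -0.98 ± 0.29 log2 (SE, adjusted p = 0.151). Array numbers pair these adult groups, and with the number as a block *Rfc2* was called (adjusted p = 0.0464). On the adult DN3 arrays the median over the members was -0.41, -0.01 and 0.24, and on the adult DN2 arrays -0.02, 0.23 and 0.32. The groups overlapped, but within each array number adult DN3 was the lower, in 3 of 3 pairs. Array 1 of adult DN3, the one with *Xist* at the level of the other adult arrays, was the lowest.

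Along the fetal stages 1 member passed the test. From fetal ETP to DN2 limma called 0 members (1.23% of all genes), with 2 higher at an unadjusted p under 0.05, *Tk1* and *Rrm2*, and a median of 0.15 log2. From fetal DN2 to DN3 it called 0 (2.96% of all genes), with 0 at an unadjusted p under 0.05 and a median of -0.14 log2. No other fit called a member in either step. From fetal ETP to fetal DN3 *Tk1* alone was higher, by 0.85 ± 0.22 log2 (SE, 1.81-fold, adjusted p = 0.034), where 3.25% of all genes were called higher and 3.13% lower. Array numbers pair the fetal groups, and *Tk1* was no longer called with the number as a block within each age. It was also lost without array 1 or array 3 of fetal ETP and without any single array of fetal DN3, and 2 members were called without fetal ETP array 2. *Prim2* (0.71 ± 0.21, adjusted p = 0.0787) and *Pold1* (1.09 ± 0.37, adjusted p = 0.122) were next and were called with *Tk1* after quantile normalization.

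Whether the age difference itself changed between stages was tested directly. From ETP to DN3 it shrank for *Rrm1* by -2.5 ± 0.57 log2 (SE, limma adjusted p = 0.0363), from 2.34 in ETP to -0.16 in DN3, and this was the only member called (3.03% of all genes). With the array number as a block within each age *Rrm1* was not called (adjusted p = 0.0588), and *Rrm2* and *Rfc4* were. The call was also lost without any single array of fetal DN3, and without array 2 or 3 of adult ETP, adult DN3 or fetal ETP or array 2 of fetal DN2. From ETP to DN2 limma called 0 members (0.984% of all genes). At an unadjusted p under 0.05, 16 were lower and 0 higher, with no share of all genes counted. *Rrm1* was -2.42 ± 0.57 there (adjusted p = 0.0921), *Rrm2* -1.65 ± 0.36 (adjusted p = 0.0586) and *Rpa2* -2.00 ± 0.71 (adjusted p = 0.425). The median change over the members was -0.66 log2, against -0.037 over all genes. From DN2 to DN3 limma called 0 members (0.71% of all genes), with 3 higher at an unadjusted p under 0.05, and the other fits called 0 too. Both counts, from ETP to DN2 and to DN3, moved with single arrays: without adult ETP array 1 they were 5 and 7, without adult ETP array 2 they were 0 and 0, and the weighted fit gave 13 and 7, all of them decreases.

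Genes that act beside the members were followed as fixed lists. Of 33 further replication genes measured, fetal ETP had 5 higher and 0 lower than adult ETP (median 0.53 log2). The largest were *Uhrf1*, which carries DNA methylation through replication (2.77 ± 0.58, SE), *Rnaseh2c*, a subunit of ribonuclease H2 (1.89 ± 0.40), and *Ccna2*, cyclin A2 (1.68 ± 0.25). From adult ETP to DN2, 7 rose and 2 fell. *Samhd1*, an enzyme that breaks down deoxynucleotides, fell by 4.41 ± 0.41 log2, *Uhrf1* rose by 2.35 ± 0.58 and *Ccna2* by 2.09 ± 0.25. The other gene that fell was *Rrm2b* (-0.94 ± 0.19), the small reductase subunit used outside S phase.

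Of 10 E2F and pocket protein genes measured, 2 were higher in fetal than in adult ETP, *E2f5* (3.04 ± 0.54 log2, SE) and *Tfdp1*, the dimer partner of E2F (1.35 ± 0.19), and none was lower. Also 2 rose from adult ETP to DN2, *Rbl1* (1.66 ± 0.29), which encodes the pocket protein p107, and *Tfdp1* (1.12 ± 0.19). *E2f5* was also called higher in fetal than in adult DN2 (3.29 ± 0.54).

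Of 26 mitosis genes, fetal ETP had 13 higher and 0 lower than adult ETP, with a median of 1.29 log2. *Birc5*, encoding survivin (2.08 ± 0.52, SE), *Prc1*, which bundles spindle midzone microtubules (1.87 ± 0.47), and *Kif23*, a motor protein of cytokinesis (1.85 ± 0.46), were the largest. From adult ETP to DN2, 14 rose and 0 fell with a median of 1.48 log2, led by *Ube2c* (2.5 ± 0.56), *Prc1* (2.24 ± 0.47) and *Hmmr* (2.19 ± 0.58). Limma called 0 of them in the fetal steps from ETP to DN2 and from DN2 to DN3, where 0 and 2 had an unadjusted p under 0.05. The median over the mitosis genes was -0.87, -1.47 and -0.95 on the adult ETP arrays and between -0.66 and 0.37 on the other 15. In both sets the 3 adult ETP arrays were the lowest of the 18 and adult DN3 array 1 the next, while the order of the other 14 arrays differed between the sets.

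**Figure D4:**
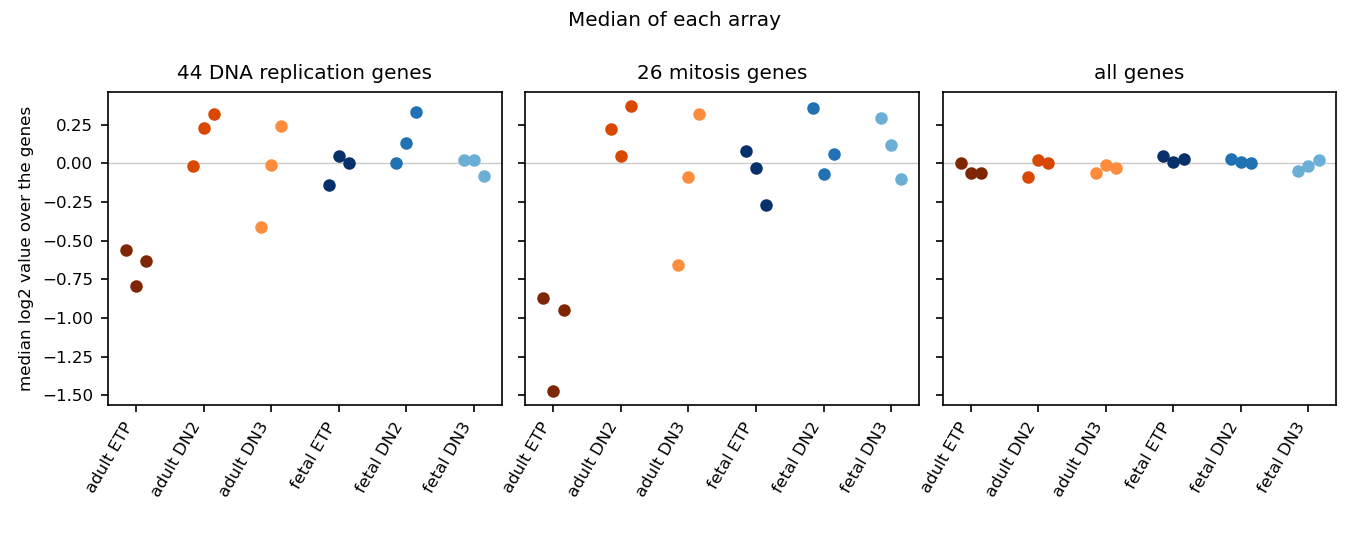
Median log2 value of each array over the 44 DNA replication genes, 26 mitosis genes and all genes, in the 6 groups; each point is 1 array. The adult ETP points lie between -0.79 and -0.56 for replication and between -1.47 and -0.87 for mitosis, below all other arrays, while the medians over all genes stay between -0.09 and 0.05.

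Most myeloid markers moved against the members: 5 of 12 were lower in fetal than in adult ETP and 6 of 12 fell from adult ETP to DN2, *Csf1r* with a difference of -9.52 ± 0.34 log2 (SE). In fetal against adult ETP 4 of the 12 lay above 0, 2 of them at an unadjusted p under 0.05. From adult ETP to DN2 2 lay above 0, and 0 rose at such a p. Their part in the values of the members was not tested. Erythroid markers had a mean over 9 genes of -0.12 to -0.03 on the adult arrays and of 0.04 to 1.73 on the fetal ones. Natural killer markers, which moved with the members between the ages, had a mean over 7 genes of -1.11 to -0.15 in adult ETP and 1.47 to 1.81 in fetal ETP. All 7 differences lay above 0, but their median was only 0.34 log2. The granzyme genes *Gzma* (9.15 ± 0.69 log2) and *Gzmb* (5.76 ± 0.57) were called higher in fetal ETP, and the other 5 were not called. At the adult step to DN2 *Gzma* was higher and *Klrd1* lower, with a mean of -0.65 to -0.53 in adult DN2. Thymic stroma markers had a mean over 9 genes of -0.71 to -0.62 in adult ETP, below every array of the other groups (-0.3 to 0.49). Of the 9, 2 were called higher in fetal than in adult ETP (*Krt18* and *Epcam*) and 1 from adult ETP to DN2 (*Epcam*, 4.97 ± 0.60 log2). The median difference over the 9 genes was only 0.09 log2 in the first of these comparisons and 0.02 log2 in the second. Of 7 B cell markers limma called 0 in either comparison, where 2 and 0 had an unadjusted p under 0.05, and of 6 later thymocyte markers 1 rose from adult ETP to DN2. The part of these lists was not tested either.

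The spread between arrays of a group was widest where the members were low. Pooled over the members, the adult SD was 0.6 log2 for ETP, 0.477 for DN2 and 0.423 for DN3, and the fetal SD 0.313, 0.424 and 0.265. Over all genes it was 0.498 in adult ETP. Array 2 of adult ETP was the lowest of its group for 20 members, array 3 for 17 and array 1 for 7.

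Probe sets of one gene did not always move alike. Of all probe sets 5.04% were called higher in fetal than in adult ETP and 2.96% from adult ETP to DN2. Of the 24 members with several, all probe sets were called higher in fetal than in adult ETP for 2 (*Rfc4* and *Rrm2*) and some of them for 6 more, and the sign was the same in all for 14. From adult ETP to DN2 all were called for 3 (*Rpa2*, *Rrm1* and *Rrm2*) and some for 7 more, and the sign was the same for 21. For *Rrm1* the second probe set gave 1.04 ± 0.11 log2 (SE) from adult ETP to DN2, where the representative gave 2.42. For *Rpa2* it gave 1.12 ± 0.19 in place of 2.36.

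*Rrm2* was measured by 3 probe sets that gave 2.29, 2.03 and 1.48 log2 in that step. *Mcm3* was measured by 5. Besides the representative, 2 were called in both comparisons (0.93 and 1.15 log2 from adult ETP to DN2), and these carry the marks _s_at and _x_at. Of the unmarked others, 1 stood at 1.82, -0.01 and -0.16 in adult ETP, opposite in sign to the others on array 1. The last was called in neither comparison. It gave 0.53 ± 0.39 log2 from adult ETP to DN2 (limma adjusted p = 0.603), with means of -0.08 in adult and 0.27 in fetal ETP. For *Fen1* the other probe set, marked as prone to cross-hybridization, gave -0.10 ± 0.15 log2 in fetal against adult ETP. One of the other probe sets of *Orc2*, which is part of the origin recognition complex, was called higher in fetal cells both in ETP (1.23 ± 0.20) and in DN2 (1.06 ± 0.20), while its representative was called in neither. For *Dut*, which removes dUTP, the second probe set rose by 0.87 ± 0.12 log2 from adult ETP to DN2, with adult ETP arrays at -0.65, -0.95 and -0.88. Of the 78 probe sets 8 spanned less than 0.5 log2 over the 18 arrays and carried almost no difference.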

How the data were processed

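Thymocyte RNA was measured on Affymetrix mouse genome arrays (18 arrays, 3 in each of 6 groups). The deposited log2 values came from GC-RMA, run by the authors in GeneSpring GX (the submitters' processing notes give no version), after repeated amplification of the RNA, and the median of every probe set across the 18 arrays was 0 (within 5e-07). All columns could be mapped to a sample. Centred values hold no level, so no filter on low values was applied and array number limits the precision.

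From these values a limma model (limma 3.58.1 in R 4.3.3) gave a mean for each of the 6 groups on 18 arrays, without a variance trend, and p-values were adjusted over all 22626 probe sets. Errors of differences are limma's standard errors. A gene with several probe sets was represented by one not marked _x_at or _s_at, where there was one, and among these by that with the largest SD. One gene is named for 20380 probe sets, several for 691 and none for 1555. The fit was tested on simulated data.

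The members, the lists, the motifs and the rule for naming genes were chosen with earlier results of these data known. Every member may be named, and values of each array are given for the 2 regulated members with the widest range of means in each role, and for others where a comparison turns on them, those chosen after their values were seen. Of the other lists the 3 called genes with the largest difference in each of 2 comparisons are given. The genes without a probe set and 7 members without a promoter window (*Mcm4*, *Gmnn*, *Pole*, *Ccne2*, *Gins1*, *Rfc2*, *Prim2*) are named only.

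Arrays that share a number deviated together from their group means in every pair of fetal groups (r from 0.312 to 0.597), where pairing was accepted above 0.1. So did those of adult DN2 with every group except adult ETP, whose numbers paired with no group. Alternatives were other thresholds, array weights, centring and quantile normalization, fits of only the groups compared, means of probe sets, robust variances, blocks and leaving out each array. Plots and tables were made in Python 3.11.15 (numpy 2.4.6, pandas 2.3.3, matplotlib 3.10.9).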

Additional observations from a re-analysis of the deposited data

Results flagged for a closer look

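The fetal against adult difference of *Rrm1* changed between stages: it was smaller in DN3 than in ETP by a change of -2.5 ± 0.57 log2 (SE), which limma's interaction test called at an adjusted p of 0.0363. The change had the same sign in all alternatives (-2.85 to -0.67 log2) and the adjusted p lay between 0.016 and 0.658 in them. The call was lost without array 2 or 3 of adult ETP, array 2 or 3 of adult DN3, array 2 or 3 of fetal ETP, array 2 of fetal DN2 or any single array of fetal DN3, with adjusted p between 0.053 and 0.0946. With the array number as a block within each age it was lost too (adjusted p = 0.0588), although the numbers of adult ETP paired with no group. The second probe set of the gene gave -0.67 log2 (adjusted p = 0.0447), under the fold limit.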

How the results depend on the processing

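Limits were the 3 arrays per group, the wide spread of adult ETP and the lack of a level. In fetal against adult ETP, where 9 members were called, the count was 14 (1 lower) at 1.5-fold, 4 at an adjusted p under 0.01, 15 with array weights, 2 after quantile normalization, 4 with only the arrays compared, and 5 to 13 leaving out 1 array. From adult ETP to DN2 (15) it was 7, 3 and 2 at an adjusted p under 0.01, after quantile normalization and with only the arrays compared, and 10 to 19 leaving out 1 array. From adult ETP to DN3 (13) it was 7, 20, 3 and 4 at an adjusted p under 0.01, with array weights, after quantile normalization and with only the arrays compared, and 7 to 17. For regulated members (17) it was 6, 31 and 6 under the first 3 of these and 7 to 21. The one-way test gave 12 with adjustment and 21 without. From fetal ETP to DN3 (1) it was 0 at 2-fold, at an adjusted p under 0.01, with array weights and with only the arrays compared, 3 after quantile normalization, and 0 to 2. With array weights, whose estimate did not converge, 5 members were called in fetal against adult DN2 (0 to 1 leaving out 1 array) and 2 from adult DN2 to DN3. The change of the age difference from ETP to DN2 (0) gave 13 with array weights, 2 with the mean of probe sets and 0 to 5, and that from ETP to DN3 (1) gave 7, 3 and 0 to 7, and 0 at an adjusted p under 0.01 and after quantile normalization. The cause was not tested. Counts of fetal against adult DN3, adult DN2 to DN3, both fetal steps and the change from DN2 to DN3 were 0 leaving out 1 array.

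Array numbers of adult ETP paired with no group, so a block on the number does not make the comparisons with adult ETP paired ones. With the array number as a block, counts were 10, 16, 15 and 18 in fetal against adult ETP, adult ETP to DN2, adult ETP to DN3 and over the groups, and 1 from adult DN2 to DN3. With the block within age they were 1 from adult DN2 to DN3, 0 from fetal ETP to DN3 and 2 for the change from ETP to DN3 (*Rrm2* and *Rfc4*, in place of *Rrm1*), and with either block no other count of calls moved by over 1.5 times.

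Alternatives chosen after seeing the data left out arrays in doubt. Without the 2 adult DN3 arrays low in *Xist* the counts were 2 from adult ETP to DN3, 1 for the change from ETP to DN2 and 0 for that to DN3. Without the 6 fetal arrays numbered 2 or 3 they were 0 in fetal against adult ETP, 4 from adult ETP to DN2, 4 to DN3, 0 from fetal ETP to DN3, 0 for the change from ETP to DN3, and 2 regulated. Without adult ETP arrays 2 and 3 they were 4 (1 lower, *Pole*), 5 and 5 in the first 3, 0 for the change from ETP to DN3, and 6 regulated. In these fits the lone array of a group is assumed to vary like the others. With the probe set of smallest SD the changes gave 1 (ETP to DN2) and 0 (ETP to DN3), and *Mcm3* reversed, to -0.50 in fetal against adult ETP and -0.59 from adult ETP to DN2, where another probe set, high on adult ETP array 1, represents it.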
